A study of Mus musculus with 15 samples.

Results

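The 10 genes described here are Ctgf, Cyr61, Ankrd1 and Amotl2, which are targets of the coactivator YAP, and Acta2, Tagln, Tagln2, Cnn1, Myl9 and Tpm1, which encode parts of the contractile cytoskeleton and are targets of the serum response factor SRF. They were taken by name from the table of the whole series, where all 10 of 10 were found among 23244 gene entries. The rule uses no measured value, but the 10 genes were chosen with earlier results of these data known. The samples were mouse optic tissue grown in vitro from the EB5-derived Rx::GFP embryonic stem cell line by SFEBq culture, in which dissociated stem cells reaggregate and form an eye-field epithelium. GFP from the Rx locus marked the retinal progenitor epithelium, which was dissected by forceps at Day 10. One set of this tissue, Day 10 Rx::GFP+, was collected at once. The rest was cultured as explants in maturation medium and collected at Day 12 and at Day 15. +Wnt explants received CHIR99201, an inhibitor of GSK3 that activates Wnt/beta-catenin signalling, at 3 uM for 24 hours and at 1 uM afterwards. +Fgf explants received human recombinant bFgf at 5 ng/ml together with 10% FBS. Serum is a known activator of SRF and YAP. Since bFgf and serum were added together, their effects cannot be told apart. Day 10 tissue had neither addition and was not cultured as an explant. Time in explant culture and the additions therefore cannot be told apart in comparisons with Day 10. Before differentiation, the stem cells of all groups had been kept in medium with CHIR99201 at 3 uM and PD0325901 at 1 uM. Each of the 5 groups held 3 biological replicates, 15 libraries in all.

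YAP and its relative TAZ (encoded by Wwtr1) are coactivators that enter the nucleus when the Hippo kinases are inactive or when cells spread and build tension, and they bind DNA through the TEAD factors. SRF binds a sequence called the CArG box and works with the coactivator Myocd and the MRTF coactivators (Mkl1, Mkl2). The MRTF coactivators are released when free actin is used up in filaments, for example after serum stimulation. Both pathways therefore read the state of the actin cytoskeleton, and their targets include cytoskeletal genes and secreted matricellular proteins. In the developing eye, YAP and TEAD are known for their role in the choice between retinal pigmented epithelium and neural retina.

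Promoter sequences were looked up for the 10 genes in RefSeq (GRCm38.p6, the assembly also called mm10), and 8 had an entry (all but Ctgf and Tagln). The 250 bases before the start site were searched on both strands for 2 motifs. The first was the TEAD motif GGAATG. The second was the CArG box, either exact, with all 6 middle letters A or T, or with 1 of these 6 letters C or G. No match overlapped another. The TEAD letters were found in 6 of the 8 promoters, and in 12.6% of all 32851 promoters of this length. A CArG box with at most 1 such letter was found in 2 of 8 and in 8.59% of all promoters, and an exact one in 1 of 8 and in 1.47%. The 5 windows below hold the CArG matches (Acta2, Myl9) and the TEAD letters of the YAP targets with an entry (Cyr61, Ankrd1, Amotl2), and are shown because the groups of genes below are named for these factors. They run 5′ to 3′ toward the gene, with matches in capitals.
Acta2, chr19:34255374-34255623, minus strand: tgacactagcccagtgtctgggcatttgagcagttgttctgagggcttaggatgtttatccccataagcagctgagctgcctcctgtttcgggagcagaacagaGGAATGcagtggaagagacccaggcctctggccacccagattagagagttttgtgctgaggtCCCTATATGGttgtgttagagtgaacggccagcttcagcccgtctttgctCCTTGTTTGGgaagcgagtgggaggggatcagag
Myl9, chr2:156775214-156775463, plus strand: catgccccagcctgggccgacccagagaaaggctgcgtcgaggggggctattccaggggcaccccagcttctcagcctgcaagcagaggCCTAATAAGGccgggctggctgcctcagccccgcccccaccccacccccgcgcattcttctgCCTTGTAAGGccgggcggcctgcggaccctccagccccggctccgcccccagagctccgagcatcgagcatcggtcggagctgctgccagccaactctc
Cyr61, chr3:145649986-145650235, minus strand: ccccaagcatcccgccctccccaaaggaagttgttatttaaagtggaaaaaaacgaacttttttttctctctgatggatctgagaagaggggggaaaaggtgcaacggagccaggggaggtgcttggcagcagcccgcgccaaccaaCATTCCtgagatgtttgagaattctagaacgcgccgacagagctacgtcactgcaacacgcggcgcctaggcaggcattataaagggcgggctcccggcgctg
Ankrd1, chr19:36119845-36120094, minus strand: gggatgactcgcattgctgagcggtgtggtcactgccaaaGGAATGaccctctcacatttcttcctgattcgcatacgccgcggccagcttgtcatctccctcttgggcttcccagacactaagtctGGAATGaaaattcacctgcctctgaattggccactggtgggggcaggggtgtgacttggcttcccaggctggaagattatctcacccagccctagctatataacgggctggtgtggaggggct
Amotl2, chr9:102717554-102717803, plus strand: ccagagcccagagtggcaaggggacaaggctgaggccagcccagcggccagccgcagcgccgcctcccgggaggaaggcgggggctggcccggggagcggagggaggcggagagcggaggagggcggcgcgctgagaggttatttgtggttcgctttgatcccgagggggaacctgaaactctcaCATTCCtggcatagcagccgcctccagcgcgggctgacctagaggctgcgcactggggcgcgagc
Counted from the start site, Acta2 held CArG matches with 1 C or G at -84 to -75 and at -34 to -25, and the TEAD letters at -146 to -141. Myl9 held the exact CArG box at -161 to -152 and one with 1 C or G at -99 to -90. The TEAD letters began at -103 in Cyr61, at -210 and -123 in Ankrd1, and at -65 in Amotl2. Tagln2, with 2 matches, and Tpm1, with 1, held the TEAD letters too, and Cnn1 held neither motif in this window. Start sites here are those of the RefSeq entries and differ from the ends of the GENCODE gene spans given below. The Amotl2 and Ankrd1 windows lie inside these spans, and the Acta2 and Myl9 windows lie partly inside. A match describes letters, not binding.

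Levels are given as CPM, read counts scaled to a common library size, as the authors deposited them. Between 12556998 and 16175450 reads per library fell on genes, and 1 read was worth between 0.0620 and 0.0764 CPM. Pearson's r of log2 values was 0.988 to 0.995 between replicates (15 pairs) and 0.867 to 0.969 between libraries of different groups (90 pairs). Groups were compared with limma on log2(CPM + 0.3), a scale that understates the change of low genes, and a gene is said to have risen or fallen where the Benjamini-Hochberg adjusted p over all 13845 genes tested was under 0.05. Ankrd1 was too low to pass the filter for this test (at least 1 CPM in at least 3 libraries), so 9 of the 10 genes were tested. In bulk tissue, a change in the share of cells that express a gene and a change in RNA per cell cannot be told apart.

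**Figure D1:**
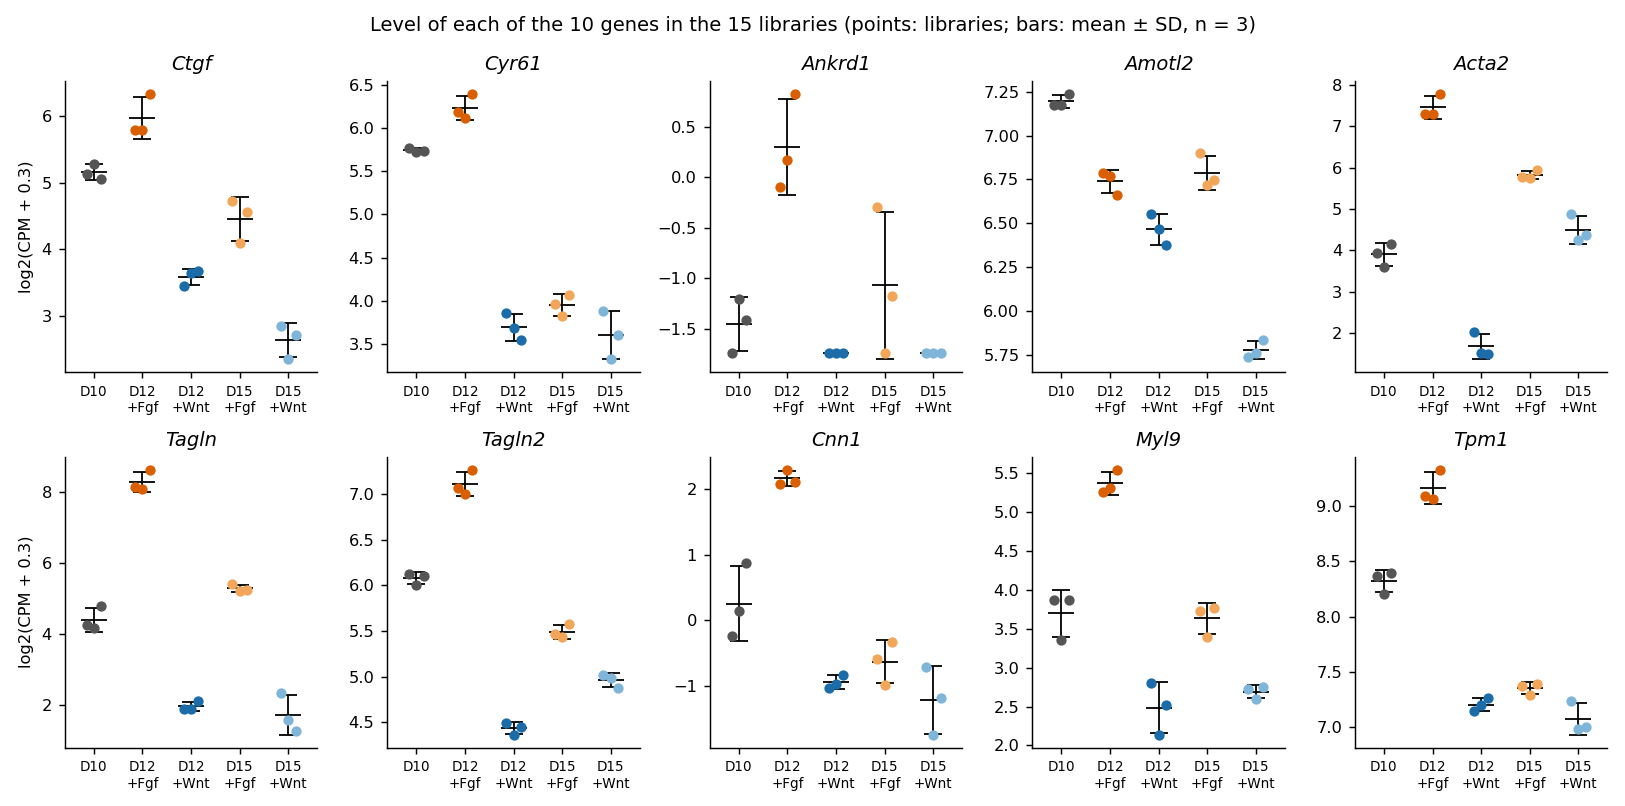
Level of each of the 10 genes as log2(CPM + 0.3), with each library as a point and the mean ± SD of 3 libraries as bars, on a separate vertical range per gene. Day 12 +Fgf was the highest group for 9 genes, and Day 10 was the highest for Amotl2.

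Acta2 and Tagln moved most. Acta2 (smooth muscle alpha-actin, chr19:34241090-34255590, minus strand) was at 15.1, 11.9 and 17.6 CPM in the 3 Day 10 libraries and at 157.2, 156.0 and 218.3 CPM in Day 12 +Fgf. It was at 3.77, 2.58 and 2.52 CPM in Day 12 +Wnt, at 54.0, 53.6 and 61.0 CPM in Day 15 +Fgf and at 29.3, 18.6 and 20.3 CPM in Day 15 +Wnt. No library of a group overlapped with one of another group, and the order was Day 12 +Fgf, Day 15 +Fgf, Day 15 +Wnt, Day 10 and Day 12 +Wnt. Against Day 10, Acta2 rose in Day 12 +Fgf by 3.55 on the log2 scale (SE 0.18, limma adjusted p = 3.04e-10) and fell in Day 12 +Wnt, with a difference of -2.22 (SE 0.18, limma adjusted p = 3.72e-08). The ratio of the mean CPM of Day 12 +Fgf to that of Day 12 +Wnt was 60.0. None of the 2095 windows of read length in its transcripts occurred letter for letter in another gene of the annotation, the other actins included. Windows that differ in a few letters were not looked for.

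Tagln (transgelin, an actin-binding protein also called SM22 alpha, chr9:45929619-45936058, minus strand) was at 18.7, 17.7 and 27.1 CPM at Day 10 and at 282.0, 272.7 and 393.0 CPM in Day 12 +Fgf. It was at 3.40, 3.41 and 4.04 CPM in Day 12 +Wnt, at 42.0, 36.5 and 37.8 CPM in Day 15 +Fgf and at 4.78, 2.68 and 2.10 CPM in Day 15 +Wnt. The libraries of both +Wnt groups overlapped, below all other libraries, and those of the remaining groups did not overlap. The difference from Day 10 was 3.88 in Day 12 +Fgf (SE 0.22, limma adjusted p = 6.69e-10) and -2.43 in Day 12 +Wnt (SE 0.22, limma adjusted p = 8.75e-08). Between both media at Day 12 the ratio of mean CPM was 87.4, the largest among those of the 10 genes with reads in both groups. Exons of Tagln overlap with Gm48529 and Pcsk7 on the opposite strand, and the strand setting of the counting is not given in the sources used here, so reads of these genes cannot be told apart.

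The other 4 contractile genes followed with smaller differences. Tagln2 (transgelin 2, chr1:172500047-172507380, plus strand) had 67.3 ± 2.98 CPM at Day 10 (SD, n = 3, as in all such values below), 138.2 ± 13.3 in Day 12 +Fgf, 21.4 ± 0.958 in Day 12 +Wnt, 44.7 ± 2.42 in Day 15 +Fgf and 30.9 ± 1.68 in Day 15 +Wnt. Its 5 groups did not overlap. Tpm1 (tropomyosin 1, which lies along actin filaments, chr9:67022590-67049406, minus strand) had 320.0 ± 21.8, 574.7 ± 58.9, 146.9 ± 6.14, 162.7 ± 6.07 and 134.7 ± 13.6 CPM in the same order of groups. Only Day 12 +Wnt and Day 15 +Wnt overlapped among its groups. Myl9 (the regulatory light chain of non-muscle and smooth muscle myosin, chr2:156775420-156781658, plus strand) had 12.9 ± 2.58, 41.3 ± 4.49, 5.40 ± 1.28, 12.2 ± 1.70 and 6.17 ± 0.380 CPM. Its Day 10 and Day 15 +Fgf libraries overlapped, as did those of both +Wnt groups.

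Cnn1 (calponin 1, which binds actin and slows myosin in smooth muscle, chr9:22099216-22109630, plus strand) was low in every group. It had 8, 12 and 20 reads at Day 10, 62, 72 and 63 reads in Day 12 +Fgf, and 3, 3 and 4 reads in Day 12 +Wnt. In Day 15 +Fgf it had 5, 3 and 7 reads, and in Day 15 +Wnt 5, 0 and 2 reads. In CPM, these were 0.959 ± 0.510 at Day 10, 4.18 ± 0.355 in Day 12 +Fgf, 0.221 ± 0.0394 in Day 12 +Wnt, 0.356 ± 0.145 in Day 15 +Fgf and 0.150 ± 0.155 in Day 15 +Wnt. The Day 12 +Fgf libraries lay above all others, and the 3 lowest groups overlapped. Between both media at Day 12 the ratio of reads at equal depth was 19.0 (95% exact binomial interval 10.1 to 40.2, for counting error only).

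Among the YAP targets, Ctgf and Cyr61 encode secreted matricellular proteins of the CCN family (Ccn2 and Ccn1 in the annotation). Ctgf (chr10:24595442-24598683, plus strand) was at 34.8, 38.7 and 33.1 CPM at Day 10, 54.8, 55.0 and 79.7 CPM in Day 12 +Fgf and 10.7, 12.2 and 12.4 CPM in Day 12 +Wnt. At Day 15 it was at 26.3, 16.8 and 23.3 CPM in +Fgf and 6.95, 4.85 and 6.31 CPM in +Wnt. Its 5 groups did not overlap, from Day 12 +Fgf down through Day 10, Day 15 +Fgf and Day 12 +Wnt to Day 15 +Wnt. An exon of Gm15270 overlaps with Ctgf on the opposite strand. Cyr61 (chr3:145646976-145649981, minus strand) was at 54.3, 52.4 and 53.0 CPM at Day 10, 72.3, 69.1 and 83.4 CPM in Day 12 +Fgf and 14.2, 12.6 and 11.4 CPM in Day 12 +Wnt. At Day 15 it was at 15.3, 13.9 and 16.5 CPM in +Fgf and 14.5, 9.77 and 11.9 CPM in +Wnt. The Cyr61 libraries of Day 12 +Wnt overlapped with those of both Day 15 groups.

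Ankrd1, which encodes an ankyrin repeat protein of muscle and of stretched cells (chr19:36111961-36120099, minus strand), had 0, 2 and 1 reads at Day 10 and 10, 13 and 23 reads in Day 12 +Fgf. No read was found in any of the 6 +Wnt libraries, and Day 15 +Fgf had 7, 0 and 2 reads. The Day 12 +Fgf libraries, at 0.634, 0.828 and 1.47 CPM, lay above all others. The ratio of reads at equal depth was 13.9 against Day 10 (95% exact binomial interval 4.47 to 69.9). Against Day 12 +Wnt, Ankrd1 was at least 14.8-fold higher, with 3 reads over the whole group as the limit that a count of 0 allows. With no filter on low values, the difference of Day 12 +Fgf from Day 10 was 1.75 (limma adjusted p = 0.000165).

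Amotl2 encodes an angiomotin-like scaffold that binds YAP and holds it outside the nucleus (chr9:102716672-102733418, plus strand). It was highest at Day 10, at 144.1, 144.1 and 150.3 CPM, and was at 110.0, 108.9 and 101.1 CPM in Day 12 +Fgf and 93.6, 88.3 and 82.7 CPM in Day 12 +Wnt. At Day 15 it was at 119.0, 104.9 and 107.0 CPM in +Fgf and 53.2, 53.9 and 56.8 CPM in +Wnt. It fell from Day 10 in both media at Day 12, with differences of -0.45 in +Fgf (limma adjusted p = 5.52e-06) and -0.73 in +Wnt (limma adjusted p = 2.34e-08). Only both +Fgf groups overlapped.

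At Day 12, the comparison with Day 10 covers the first days of explant culture together with the additions, which cannot be told apart. In Day 12 +Fgf, 8 of the 9 genes tested rose and Amotl2 fell, where 27.9% of all genes tested rose and 27.8% fell. The differences of the genes that rose ran from 0.49 for Cyr61 through 0.81 for Ctgf, 0.84 for Tpm1, 1.03 for Tagln2, 1.67 for Myl9 and 1.90 for Cnn1 to those of Acta2 and Tagln given above. The median of the 9 differences was 1.03, beside -0.00 over all genes. In Day 12 +Wnt all 9 fell, where 30.6% of all genes rose and 29.6% fell. These differences ran from -0.73 for Amotl2 to -2.43 for Tagln, with -1.12 for Tpm1, -1.20 for Cnn1, -1.21 for Myl9, -1.57 for Ctgf, -1.64 for Tagln2 and -2.04 for Cyr61. The median was -1.57, beside 0.01 over all genes. Both comparisons share the 3 Day 10 libraries. The RNA integrity number in the study's methods was lower in every Day 10 library than in every Day 12 library. With it as a covariate, all 9 genes kept their direction and passed in both comparisons. Over all 13845 genes, 2840 then rose and 2768 fell in Day 12 +Fgf, against 3862 and 3854 without it. In Day 12 +Wnt, 3485 rose and 3456 fell, against 4236 and 4094.

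**Figure D2:**
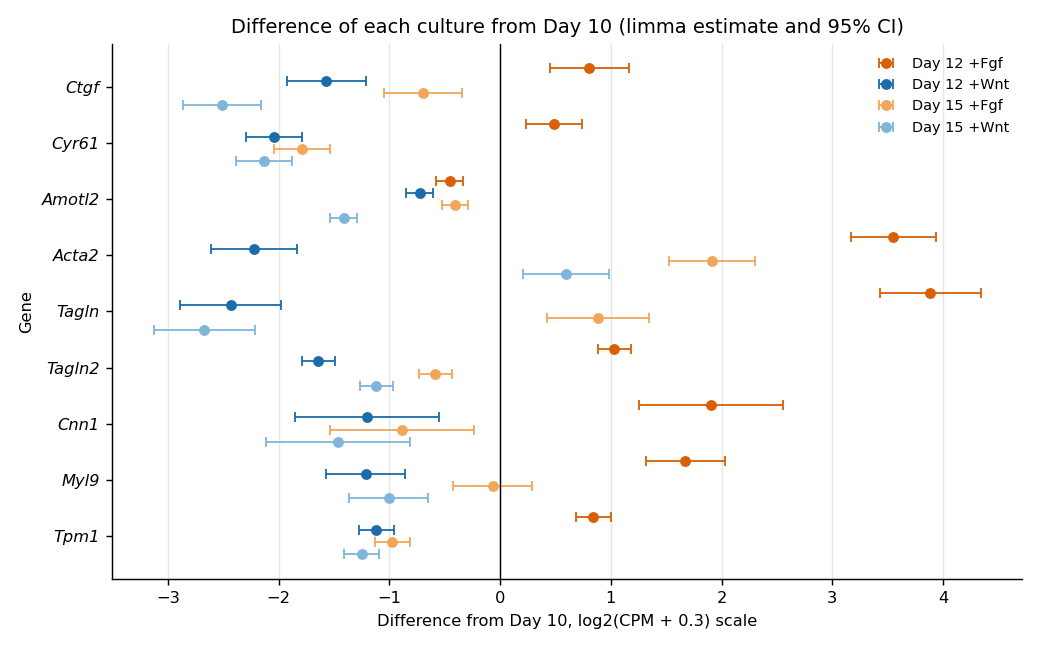
Difference of each culture from Day 10 for the 9 genes tested, as limma estimates with 95% confidence intervals on the log2(CPM + 0.3) scale. At Day 12 the +Fgf estimates lie right of 0 for 8 genes and the +Wnt estimates lie left of 0 for all 9.

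In Day 12 +Fgf, replicate 3 was the highest library for 8 of the 10 genes and the lowest for Amotl2. Without it, the same numbers passed in this comparison, 8 higher and 1 lower, and the difference of Ctgf was 0.63. In Day 15 +Fgf, replicate 2 was the lowest library for all 10 genes. Orders of this kind, here and below, were counted for the 10 genes only. A shift of a whole library therefore cannot be told apart from one of these genes.

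Set side by side at Day 12, where both media can be compared with no shared Day 10 library, all 9 genes tested were higher in +Fgf than in +Wnt, where 26.3% of all genes were higher and 25.2% lower. The libraries of both media did not overlap for any of the 10 genes, as was true in this direction for 30.9% of genes tested. The differences were 6.32 (SE 0.22, adjusted p = 1.16e-12) for Tagln and 5.77 (SE 0.18, adjusted p = 4.32e-13) for Acta2 by limma. For the other contractile genes they were 3.10 for Cnn1, 2.89 for Myl9, 2.67 for Tagln2 and 1.96 for Tpm1. For the YAP targets they were 2.53 for Cyr61, 2.37 for Ctgf and 0.27 for Amotl2. The median was 2.67, beside -0.00 over all genes.

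From Day 12 to Day 15 in +Fgf, 8 of the 9 genes fell, where 27.2% of all genes rose and 29.9% fell. Tagln changed by -3.00, Cnn1 by -2.79, Cyr61 by -2.28, Tpm1 by -1.81, Myl9 by -1.74, Acta2 by -1.64, Tagln2 by -1.62 and Ctgf by -1.50. Amotl2 did not pass, at 0.05 (95% confidence interval -0.07 to 0.17, limma adjusted p = 0.507). The RNA integrity number in the study's methods was lower in every Day 15 +Fgf library than in every Day 12 +Fgf library. With it as a covariate the same 8 genes fell, with values from -3.74 for Tagln to -1.55 for Myl9, while 1713 of all 13845 genes fell, against 4140 without it. At Day 15, Acta2 was above Day 10, by 1.91 (limma adjusted p = 6.73e-08), and so was Tagln, by 0.89 (limma adjusted p = 0.00152), where 36.2% of all genes were higher. Myl9 differed from Day 10 by -0.07 (95% confidence interval -0.42 to 0.29) and did not pass, but passed as lower with quantile normalization (-0.37, adjusted p = 0.0395). The other 6 genes tested were below Day 10 (36.4% of all genes), from -0.41 for Amotl2 to -1.79 for Cyr61. The call for Cnn1, at -0.89 (limma adjusted p = 0.0157), was lost without Day 10 replicate 3 (-0.58, adjusted p = 0.108) or Day 15 +Fgf replicate 2 (-0.71, adjusted p = 0.0707), with a pseudocount of 0.05 (adjusted p = 0.0628) and with the RNA integrity number as a covariate (adjusted p = 0.0791).

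In +Wnt, 4 of the 9 genes changed from Day 12 to Day 15, 2 in each direction, where 32.5% of all genes rose and 35.5% fell. Acta2 rose by 2.82 (SE 0.18, limma adjusted p = 9.78e-10) and Tagln2 by 0.52 (limma adjusted p = 5.13e-06). Ctgf changed by -0.94 (limma adjusted p = 9.55e-05) and Amotl2 by -0.69 (limma adjusted p = 2e-08). The 5 genes that did not pass were Cyr61 at -0.09, Tagln at -0.24 (95% confidence interval -0.69 to 0.22), Cnn1 at -0.27, Myl9 at 0.21 and Tpm1 at -0.13. Without Day 15 +Wnt replicate 1, in which 7 of the 10 genes were highest among the 3 libraries, Tagln (-0.54) and Tpm1 (-0.21) passed as lower. In Day 15 +Wnt, 8 of 9 genes stood below Day 10 (40.2% of all genes), from -1.01 for Myl9 to -2.67 for Tagln, and Acta2 stood above it, by 0.60 (limma adjusted p = 0.0066, 39.6% of all genes higher). This call for Acta2 was lost without Day 15 +Wnt replicate 1, its highest library (0.40, adjusted p = 0.0514), and with quantile normalization (0.34, adjusted p = 0.0962), which moved the median of all genes in this comparison from -0.00 to -0.11.

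**Figure D3:**
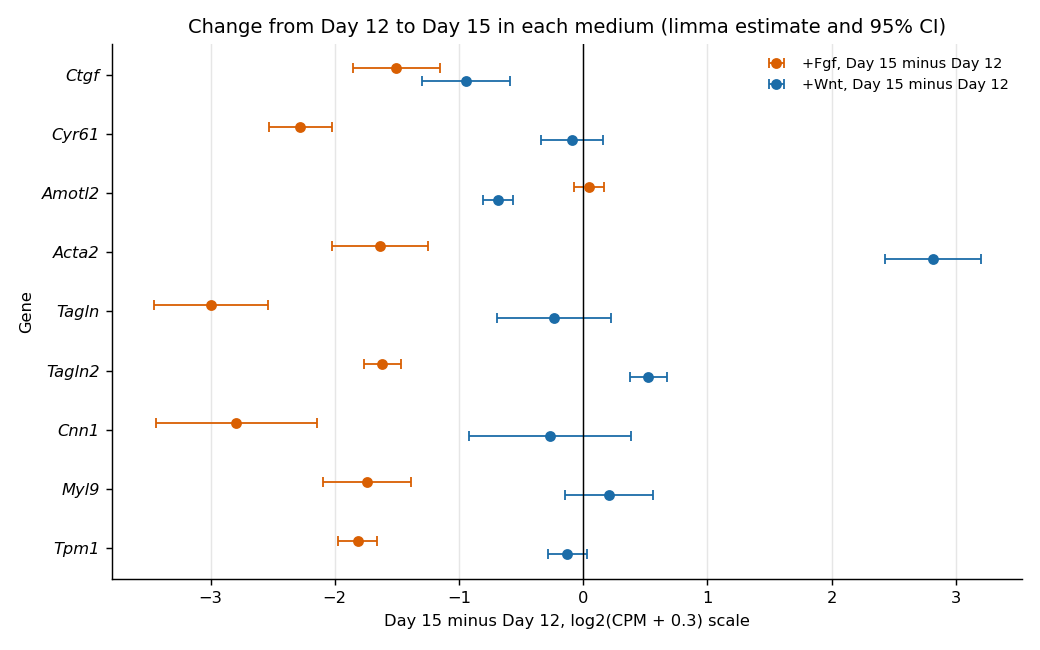
Change from Day 12 to Day 15 within +Fgf and within +Wnt for the 9 genes tested, as limma estimates with 95% confidence intervals on the log2(CPM + 0.3) scale. The +Fgf estimates lie between -3.00 and -1.50 for all genes but Amotl2, and the +Wnt estimate of Acta2 lies at 2.82.

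The change from Day 12 to Day 15 was itself compared between the media, as the +Fgf change minus the +Wnt change. It differed for 8 of the 9 genes, with 7 lower in +Fgf and Amotl2 higher, where 47.9% of all genes differed, 20.9% lower and 27% higher. The difference of changes was -4.45 (SE 0.26, adjusted p = 1.77e-09) for Acta2 and -2.76 (SE 0.31, adjusted p = 1.75e-06) for Tagln by limma. For Amotl2, which fell in +Wnt and did not pass in +Fgf, it was 0.73. For Ctgf it was -0.56 (95% confidence interval -1.06 to -0.06, limma adjusted p = 0.0605), which did not pass, and it passed without Day 12 +Fgf replicate 1 or 2, Day 15 +Fgf replicate 1 or Day 15 +Wnt replicate 2, at values between -0.70 and -0.65. With quantile normalization the value for Ctgf was -0.06 (adjusted p = 0.849). The RNA integrity number was lower in every Day 15 +Fgf library than in every library of the other groups compared here. With it as a covariate, the same 8 genes passed in the same directions, and the value for Ctgf was -0.83. Over all 13845 genes, 1661 were then lower and 2181 higher, against 2900 and 3736 without it.

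At Day 15, 8 of the 9 genes were higher in +Fgf than in +Wnt, where 38% of all genes were higher and 30.6% lower, and 7 of the 10 did not overlap between the media (40.4%). Tagln had the largest difference, 3.56 (SE 0.22, adjusted p = 3.12e-10) by limma, followed by Ctgf at 1.81, Acta2 at 1.32, Amotl2 at 1.01 and Myl9 at 0.94. Tagln2 differed by 0.53. Cyr61 differed by 0.34 with overlapping libraries (limma adjusted p = 0.017), and this call was lost when recovered reads were tested with edgeR (0.28, adjusted p = 0.0644) and without Day 15 +Fgf replicate 3 (0.29, adjusted p = 0.0688) or Day 15 +Wnt replicate 2 (0.21, adjusted p = 0.117). It was also lost with the RNA integrity number as a covariate (0.22, adjusted p = 0.460) and in a fit of only these 6 libraries (adjusted p = 0.0603). Tpm1 differed by 0.28, a call lost with the RNA integrity number as a covariate (0.07, adjusted p = 0.689) and with quantile normalization (0.14, adjusted p = 0.122). Cnn1 did not pass at 0.58 (95% confidence interval -0.07 to 1.23), and did without Day 15 +Wnt replicate 1 (0.83, adjusted p = 0.0341). The RNA integrity number was lower in every Day 15 +Fgf library than in every Day 15 +Wnt library. With it as a covariate, 3564 of all 13845 genes were higher and 2798 lower in +Fgf, against 5267 and 4238 without it.

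To compare levels between genes, CPM were divided by the length of the joined exons in the annotation. Per kilobase, Tpm1 was the highest of the 10 genes at Day 10 (49.3 CPM per kilobase), followed by Tagln2 (32.3) and Cyr61 (26.4), with Tagln in place 7 (10.7) and Acta2 in place 8 (6.76). In Day 12 +Fgf, Tagln was the highest (158.9 CPM per kilobase), followed by Tpm1 (88.6) and Acta2 (80.7). In both +Wnt groups Tpm1 was again the highest (22.6 at Day 12 and 20.8 at Day 15). Cnn1 and Ankrd1 were the lowest in all 5 groups. The pattern over the 15 libraries was compared as the root-mean-square difference of log2 values, each centred on its own mean. It was smallest for Tagln2 and Myl9 (0.289) and for Tagln2 and Tpm1 (0.311), and largest for Amotl2 and Tagln (2.19).

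The genes whose pattern was most like those of 3 of the 10 were taken from the other genes with at least 10 CPM in their highest group (11039 genes), by the same difference over the 15 libraries, which share depth and scaling. For Ctgf these were Cdh11, Foxp1, Pou2f2, Scube1 and Omd, with differences from 0.360 to 0.419, beside a median of 1.17 over all candidates. For Acta2 they were Rhoj, Anxa1, Arhgef37, Eva1a and Tgfb1, with 0.607 to 0.753 and a median of 1.96. For Tagln they were Csn3, Grb10, Angpt2, Sfrp2 and Wnt9b, with 0.639 to 0.975 and a median of 2.40. Rhoj, which encodes a small GTPase of the Cdc42 group, was at a mean of 3.09 CPM at Day 10, 53.4 in Day 12 +Fgf, 1.59 in Day 12 +Wnt, 30.4 in Day 15 +Fgf and 11.6 in Day 15 +Wnt, the same order of groups as Acta2.

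The RNA of the factors behind both pathways was measured too. RNA level does not measure the activity of these factors or their place in the cell, which was not tested. Yap1 had 300.3 ± 11.5 CPM at Day 10, 265.9 ± 7.86 in Day 12 +Fgf, 273.4 ± 18.6 in Day 12 +Wnt, 170.1 ± 4.40 in Day 15 +Fgf and 199.7 ± 7.19 in Day 15 +Wnt. Its difference between the media at Day 12 was -0.04 (limma adjusted p = 0.548), which did not pass. Wwtr1 was lower in +Fgf than in +Wnt at Day 12, with a difference of -0.33 (limma adjusted p = 0.000426) and means of 74.7 ± 4.02 and 93.9 ± 1.24 CPM. Tead2 was at 441.8 ± 12.9 CPM at Day 10, 421.6 ± 14.8 in Day 12 +Fgf and 362.1 ± 5.18 in Day 12 +Wnt, and was higher in +Fgf at Day 12 by 0.22 (limma adjusted p = 0.00188). Tead1 differed by -0.04 (limma adjusted p = 0.642), Tead3 by 0.01 (limma adjusted p = 0.919) and Tead4 by -0.43 (limma adjusted p = 0.216), and none of these passed. Tead4 was at 4.50 CPM at Day 10 and at or under 1.57 CPM in all other groups.

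Srf had 68.7 ± 6.81 CPM at Day 10, 60.5 ± 2.92 in Day 12 +Fgf and 52.7 ± 1.04 in Day 12 +Wnt, and was higher in +Fgf than in +Wnt at Day 12 by 0.20 (limma adjusted p = 0.0198). It fell in both media from Day 10 to Day 12, with a difference of -0.18 (limma adjusted p = 0.0288) in +Fgf and with a difference of -0.37 (limma adjusted p = 0.000126) in +Wnt. The MRTF genes Mkl1, at -0.02 (limma adjusted p = 0.833), and Mkl2, at 0.20 (limma adjusted p = 0.0541), did not pass between the media at Day 12. Myocd, the coactivator of smooth and heart muscle, was low, with 1.61 ± 0.137 CPM at Day 10, 2.72 ± 0.366 in Day 12 +Fgf, 0.429 ± 0.350 in Day 12 +Wnt, 0.989 ± 0.306 in Day 15 +Fgf and 1.31 ± 0.161 in Day 15 +Wnt. It was higher in +Fgf than in +Wnt at Day 12 by 2.15 (limma adjusted p = 7.76e-06).

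**Figure D4:**
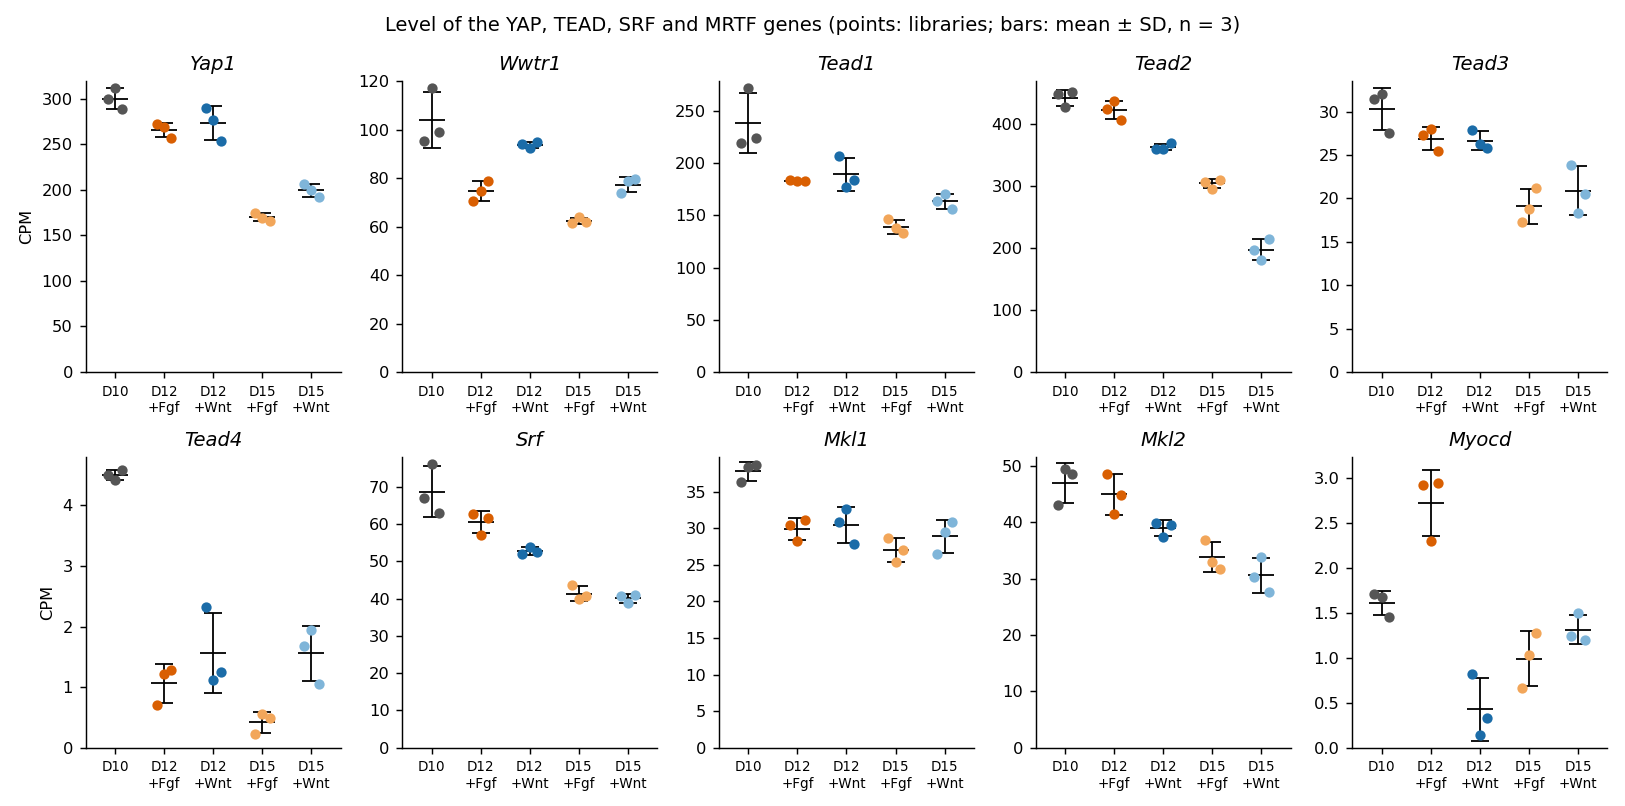
Level in CPM of the YAP, TAZ (Wwtr1), TEAD, SRF and MRTF genes and of Myocd, on an axis from 0 per gene. Each library is a point, and bars show the mean ± SD of 3 libraries. Yap1 lay between 257.1 and 272.0 CPM in the Day 12 +Fgf libraries and within the range of Day 12 +Wnt.

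Lists of other genes of both pathways, also chosen with earlier results of these data known, were counted in the same fit. Of 21 Hippo and YAP regulators (kinases, scaffolds and TEAD factors), 13 changed from Day 10 to Day 12 +Fgf, 2 higher (27.9% of all genes) and 11 lower (27.8%). In Day 12 +Wnt 14 changed, 1 higher (30.6% of all genes) and 13 lower (29.6%). Between the media at Day 12, 7 of these 21 passed, 5 higher and 2 lower in +Fgf, beside 51.5% of all genes. The 3 most abundant of them were Tead2, Yap1 and Tead1. Of 15 other YAP target genes tested (of 16 listed), 9 changed in Day 12 +Fgf, 7 higher and 2 lower, and 12 in Day 12 +Wnt, 5 higher and 7 lower, against the same shares of all genes. Between the media at Day 12, 12 of these 15 passed, 11 of them higher in +Fgf (26.3% of all genes). Of its 3 most abundant genes, Tgfb2 (a TGF-beta ligand) rose in Day 12 +Fgf from 59.3 ± 5.74 to 191.0 ± 26.4 CPM, while Asap1, at 0.01 (limma adjusted p = 0.95), and Arhgef17, at -0.05 (limma adjusted p = 0.567), did not pass.

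Of 21 other SRF and contractile genes tested (of 22), 19 changed in Day 12 +Fgf, 18 higher (27.9% of all genes) and 1 lower (27.8%). In Day 12 +Wnt 19 changed, 2 higher (30.6% of all genes) and 17 lower (29.6%). Between the media at Day 12 all 21 passed, 20 of them higher in +Fgf (26.3% of all genes). Their median difference there was 0.93, beside 2.67 for the 9 genes tested and -0.00 over all genes. The most abundant were the cytoplasmic actins Actg1, with 2835.6 ± 85.1 CPM in Day 12 +Fgf and 2313.9 ± 19.8 in Day 12 +Wnt, and Actb, with 940.2 ± 10.5 and 645.6 ± 26.6 CPM, and the calponin Cnn3, with 772.0 ± 10.5 and 613.6 ± 30.7 CPM. The Day 12 difference was 0.29 (limma adjusted p = 1.78e-05) for Actg1, 0.54 (limma adjusted p = 5.08e-09) for Actb and 0.33 (limma adjusted p = 3.47e-06) for Cnn3. From Day 12 to Day 15, 20 of the 21 fell in +Fgf (29.9% of all genes) and none rose. In +Wnt 4 rose (32.5% of all genes) and 10 fell (35.5%).

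Of 7 SRF immediate early genes tested (of 8), 5 changed in Day 12 +Fgf, 4 higher (27.9% of all genes) and 1 lower (27.8%), and 6 fell in Day 12 +Wnt (29.6%). Between the media at Day 12, 6 were higher in +Fgf (26.3% of all genes) and none lower. The most abundant were Ier2, at 73.9 ± 7.80 against 31.7 ± 0.608 CPM, Dusp1, at 25.9 ± 1.15 against 19.8 ± 1.04 CPM, and Egr1, at 28.3 ± 1.89 against 3.83 ± 1.04 CPM. At Day 15, 2 of the 7 were higher in +Fgf than in +Wnt (38% of all genes) and 2 lower (30.6%).

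**Figure D5:**
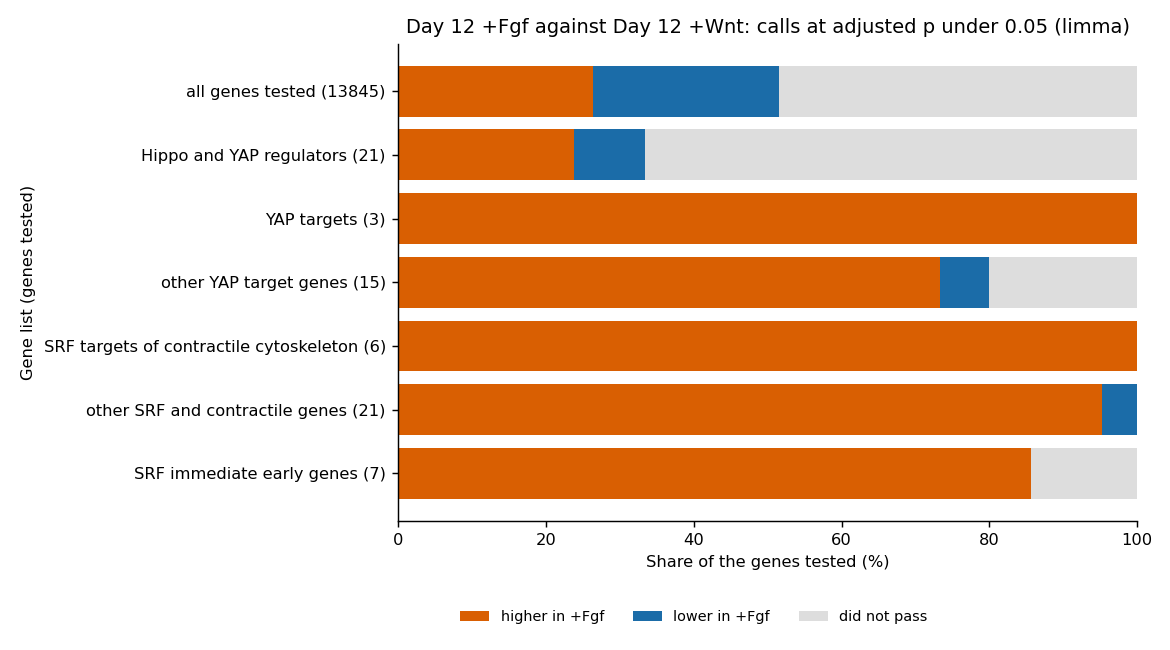
Share of the genes tested in each list that were higher (orange) or lower (blue) in Day 12 +Fgf than in Day 12 +Wnt at a limma adjusted p under 0.05, with the share that did not pass in grey and the number tested in brackets. Over all 13845 genes the shares were 26.3% higher and 25.2% lower, and all 9 genes of the YAP target and SRF target lists were higher.

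Several of the 10 genes are also markers of smooth muscle, so markers of other cell types were measured beside them. The summed level of 6 neural retina markers was 1026.5 to 1119.5 CPM in Day 12 +Fgf and 133.6 to 158.3 in Day 12 +Wnt, and that of 8 pigmented epithelium markers was 5788.4 to 7707.3 CPM in Day 15 +Wnt and 222.2 to 396.8 in Day 15 +Fgf. Rpe65, of mature pigmented epithelium, was at 0 in all libraries of 4 groups, Day 15 +Wnt among them. Of 6 smooth muscle and mural markers, the sum was 103.8 to 120.7 CPM at Day 10, 168.1 to 173.0 in Day 12 +Fgf, 102.0 to 120.1 in Day 12 +Wnt, 106.8 to 119.9 in Day 15 +Fgf and 131.7 to 142.2 in Day 15 +Wnt. Of the 5 tested, 3 rose from Day 10 to Day 12 +Fgf (27.9% of all genes) and 4 were higher in +Fgf than in +Wnt at Day 12 (26.3%), with none lower in either comparison. Most of the sum was Notch3, with 104.3 ± 8.63 CPM at Day 10. Myh11, the myosin heavy chain that defines mature smooth muscle, was at 0.701 ± 0.192 CPM in Day 12 +Fgf and at 15.3 ± 1.69 CPM in Day 15 +Wnt. Desmin (Des) was at 0.786 ± 0.353 and Rgs5 at 0.657 ± 0.254 CPM in Day 12 +Fgf, and Rgs5 was at 0 in all Day 12 +Wnt libraries. Myh11, Des and Rgs5 were the 3 of these 6 markers with a mean under 1 CPM in Day 12 +Fgf. The others, Notch3, Pdgfrb and Cspg4, were not under 1 CPM there and made up nearly all of the sum. The number of the 6 markers with a mean under 1 CPM was also 3 at Day 10 and in both Day 15 groups, and was 4 in Day 12 +Wnt.

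Of 8 striated muscle markers, 7 were under 1 CPM on average in Day 12 +Fgf, with Myod1 at 0. Actc1 (heart muscle actin) was the exception, with 6.67 ± 2.57 CPM at Day 10, 16.6 ± 2.64 in Day 12 +Fgf and at most 0.401 in the other groups on average. Of 8 fibroblast and mesenchyme markers, 3 rose (27.9% of all genes) and none fell from Day 10 to Day 12 +Fgf. Their sum was 73.8 to 99.1 CPM at Day 10 and 156.8 to 278.9 in Day 12 +Fgf. Among the Day 12 +Fgf libraries it was highest in replicate 2 and lowest, at 156.8 CPM, in replicate 3. In Day 15 +Wnt the sum was 540.0 to 654.0 CPM, with all 8 markers above Day 10 (39.6% of all genes). The sum was 112.8 to 152.7 CPM in Day 12 +Wnt and 118.8 to 151.8 in Day 15 +Fgf. The 5 endothelial markers summed to 36.8 to 61.2 CPM at Day 10, 99.6 to 170.3 in Day 12 +Fgf, 5.60 to 9.33 in Day 12 +Wnt, 216.3 to 266.8 in Day 15 +Fgf and 21.2 to 28.0 in Day 15 +Wnt. Nearly all of this in the +Fgf groups was Kdr, a gene that retinal progenitors also express, and Pecam1 was at 0.742 ± 0.129 CPM in Day 12 +Fgf. The 4 neural crest markers summed to at most 12.0 CPM in any library. The part of these cell types in the results for the 10 genes was not tested.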

How the data were processed

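RNA-Seq libraries of 15 samples, 5 groups of 3 replicates, were analysed as labelled. The authors mapped paired 101-base reads to mm10 with TopHat2 2.0.8b, counted fragments per gene with Cuffdiff and normalised them with edgeR 3.2.4, per the submitters' notes. The deposited values, called CPM, are a normalised signal: the columns sum to 936418 to 1075448, and all non-zero values (100%, tolerance 0.01) were whole multiples of 1 read. limma 3.58.1 in R 4.3.3 was fitted to log2(value + 0.3), with 5 group means over all 15 libraries, variance trend and two-sided Benjamini-Hochberg adjustment over 13845 genes with at least 1 CPM in at least 3 libraries. edgeR 4.0.16 (quasi-likelihood) was applied to the recovered reads as an alternative. In all, 26 alternatives covered pseudocount, filter, scaling, RNA integrity number, block and left-out libraries. The procedure was tested on simulated data. Positions and exons are from GENCODE M21 (GRCm38). Reads copied by PCR are not separate molecules, so intervals cover counting error alone.

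The 10 genes, the gene lists and the tests were chosen with earlier results of these data known. The naming rule takes all 10 genes and 10 YAP, TEAD, SRF, MRTF and Myocd genes. It adds the 3 genes of highest mean in each pathway list and the 5 most alike in pattern to Ctgf, Acta2 and Tagln. Marker genes were named after their values were seen. The counts of 1 pathway list are not reported here. Python 3.11.15 with pandas 2.3.3, SciPy 1.17.1 and matplotlib 3.10.9 was used for the rest.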

Additional observations from a re-analysis of the deposited data

Results flagged for a closer look

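The change from Day 12 to Day 15 differed between the media, by the limma test of the difference itself, for 8 of the 9 genes tested. As the +Fgf change minus the +Wnt change on the log2(CPM + 0.3) scale, it was -4.45 for Acta2, -2.76 for Tagln, -2.53 for Cnn1, -2.19 for Cyr61, -2.14 for Tagln2, -1.95 for Myl9, -1.69 for Tpm1 and 0.73 for Amotl2. The adjusted p ran from 1.68e-10 for Tagln2 to 0.000156 for Cnn1. For Acta2 the changes went in opposite directions, -1.64 in +Fgf and 2.82 in +Wnt, and so they did for Tagln2, -1.62 and 0.52. In this comparison 47.9% of all genes passed. With the RNA integrity number as a covariate, these 8 genes still passed, and so did 3842 of all 13845 genes, against 6636 without it. The +Fgf medium held serum as well as bFgf, and both cannot be told apart.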

How the results depend on the processing

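Of the 26 alternatives, quantile normalization alone moved a count of genes called by over 1.5 times, to 7 genes (2 higher, 5 lower) for Day 15 against Day 12 in +Wnt, beside 4. Over all 13845 genes, 4013 then rose and 5673 fell, against 4504 and 4913 without it. The median of all genes was then -0.10, against -0.02. In this comparison quantile normalization turned Myl9 to -0.38 (limma adjusted p = 0.0354) and Tpm1 to 0.0104 (adjusted p = 0.913), and Cyr61 (-0.42) and Tagln (-0.92) passed as lower. For Day 15 +Fgf against Day 10, Myl9 was turned to 0.0089 by the RNA integrity number as a covariate. Leaving out 1 library at a time turned 3 values near 0 that did not pass. Myl9 in the same comparison ran from -0.24 to 0.0514, Amotl2 for Day 15 against Day 12 in +Fgf from -0.0089 to 0.0821, and Cyr61 for Day 15 against Day 12 in +Wnt from -0.23 to 0.0490. The cause was not tested. Over all values of single genes and alternatives, 1388 kept their direction and side of the threshold, 13 lost it, 13 gained it and 8 turned. The counts of genes called at Day 12 ran from 8 to 10 of +Fgf against Day 10, from 8 to 9 of +Wnt against Day 10 and from 8 to 10 between the media, with 10 reached where Ankrd1 was tested. At Day 15 between the media the count ran from 6 to 9. The shares of all genes given above for these comparisons are those of the fit without alternatives.

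The replicate numbers did not pair the samples: deviations of same-numbered samples from their group means correlated between -0.25 and 0.24 (median -0.01 over 30 pairs, 7 of them over 0.1). With the replicate number as a block, 9 genes were called in Day 12 +Fgf against Day 10, 9 in Day 12 +Wnt and 8 for the difference of changes, as without it. Over all 13845 genes, 7688, 8291 and 6555 were called in these comparisons with the block. Reads limit Ankrd1 and Cnn1, the lowest of the 10 genes.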

Other observations

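Mylk, Lmod1 and Myh11 had their highest mean in Day 15 +Wnt, not in Day 12 +Fgf. These genes were named after their values were seen. Mylk, which encodes the kinase that activates Myl9, was at 75.4 ± 4.09 CPM at Day 10, 91.0 ± 12.4 in Day 12 +Fgf, 21.8 ± 1.00 in Day 12 +Wnt, 31.5 ± 3.70 in Day 15 +Fgf and 103.5 ± 13.2 in Day 15 +Wnt (SD, n = 3). Its Day 15 +Wnt libraries, at 118.6, 94.1 and 97.6 CPM, overlapped with those of Day 12 +Fgf, at 100.1, 76.9 and 95.9 CPM. From Day 12 to Day 15 it rose in +Wnt by 2.22 (limma adjusted p = 2.58e-11) and changed in +Fgf by -1.52 (limma adjusted p = 4.06e-09). Lmod1, which encodes the actin-nucleating leiomodin of smooth muscle, was at 1.38 ± 0.0984 CPM in Day 12 +Fgf and 5.73 ± 1.18 in Day 12 +Wnt, a difference of -1.83 (limma adjusted p = 5.11e-06), and at 11.1 ± 2.10 CPM in Day 15 +Wnt. It was the 1 gene of its list that was lower in +Fgf at Day 12. Myh11 was at 17.2, 14.5 and 14.0 CPM in the 3 Day 15 +Wnt libraries and at most 1.77 CPM in the 12 other libraries.

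The SRF immediate early genes Fos and Egr1 were higher in +Wnt than in +Fgf at Day 15, unlike at Day 12. Fos was at 9.91 ± 0.556 CPM in Day 12 +Fgf and 1.21 ± 0.145 in Day 12 +Wnt, and at 4.03 ± 1.44 and 7.93 ± 0.666 CPM at Day 15, with differences of 2.76 (limma adjusted p = 1.74e-08) at Day 12 and -0.98 (limma adjusted p = 0.000753) at Day 15. Egr1 was at 8.87 ± 0.718 CPM in Day 15 +Fgf and 15.0 ± 1.59 in Day 15 +Wnt, a difference of -0.74 (limma adjusted p = 0.000414). Amot, an angiomotin that binds YAP, was at 29.6, 76.8 and 35.6 CPM in the 3 Day 15 +Fgf libraries, while the 12 other libraries lay between 47.0 and 62.0 CPM.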
